A study of Mus musculus with 30 samples.

Results

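Histone chaperones are the proteins that carry histones to DNA and take them off again. The genes described here encode CAF-1 (Chaf1a, Chaf1b and Rbbp4), ASF1 (Asf1a and Asf1b), HIRA (Hira), DAXX with ATRX (Daxx and Atrx) and FACT (Ssrp1 and Supt16). They were chosen by symbol, and 10 of 10 were found, each on 1 of the 49585 rows of the expression table. RNA came from whole 8-cell mouse embryos of the cross BDF1 x BDF1, cultured in KSOM medium. Control knockdown embryos gave 2 libraries, and embryos after knockdown of Yy1 with the siRNA numbered 1 gave 2 libraries. Yy1 encodes the zinc finger transcription factor YY1, and the series asks how it takes part in nucleosome remodeling in early development. A knockdown lowers a transcript and does not delete the gene, and RNA was sequenced for a single Yy1 siRNA. The labels do not say whether replicate libraries came from separate collections of embryos. The series also lowers p150, the product of Chaf1a, in embryonic stem cells. Those libraries hold MNase-seq and were not analysed here, along with the rest of the 26 samples without a column in this table.

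New nucleosomes are built in steps, each served by its own chaperone. ASF1 receives a dimer of histones H3 and H4 and hands it on. CAF-1 receives the replicative forms of H3 and deposits them on freshly copied DNA, to which it is held by the sliding clamp PCNA. HIRA deposits the variant H3.3 outside replication, mostly in active chromatin, and in the mouse zygote it loads H3.3 onto the paternal genome. DAXX, bound to ATRX, deposits H3.3 in heterochromatin and at telomeres. FACT loosens and rebuilds nucleosomes as polymerases pass. CAF-1 is needed for mouse embryos to progress beyond early cleavage, and its depletion in embryonic stem cells yields cells that resemble 2-cell embryos.

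Expression was given as FPKM, in which a fragment count is divided by the length of the gene and by the library's total. The totals, recovered from the steps between FPKM values, came to 29302489 to 34429515 fragments. After knockdown Yy1 itself stood at 5.89 and 7.98 FPKM, against 77.7 and 71.2 FPKM in control, as the labels say (log2 fold change -3.26, limma adjusted p = 0.0556). Genes whose mean over the libraries reached 1 FPKM, 12120 of them, were tested with limma. It called 0 (0%) at the threshold, an adjusted p of 0.05, and 1079 (8.9%) had an unadjusted p below 0.05. A second fit, limma-voom on fragments recovered from the FPKM, called 12 genes (0.099%). Of 18 markers of the 8-cell embryo 17 had a mean of 1 FPKM or more over the 4 libraries, and Sox2, the exception, stood at 0 to 0.186 FPKM. Of 18 cumulus and granulosa cell markers Fshr, Inha, Has2, Ptx3 and Ereg were at 0 in the 4 libraries, and Nr5a2, which embryos also express, stood at 97.3 FPKM. Without Nr5a2 the 17 others summed to 5.76 and 7.68 FPKM in control and to 9.58 and 9.95 FPKM in Yy1 knockdown libraries. Most of that sum was Amhr2, and its part in the results below was not tested.

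None of the 10 chaperone genes changed past the threshold after Yy1 knockdown. By limma none of the 12120 genes tested did, Yy1 included, so this count does not set the 10 apart. Transcripts of the 10 stood at 3.59 to 87.2 FPKM, and each was detected in every library. In RNA of whole embryos fewer cells that express a gene and less of its RNA per cell cannot be told apart. Limma called 0 of the 10, with 0 at an unadjusted p below 0.05, and limma-voom called 0, with 1, Daxx, at an unadjusted p below 0.05. Over all genes 8.9% had such a p with limma and 10.4% with limma-voom. Limma called 0% of all genes and limma-voom 0.099%. The median log2 fold change of the 10 was 0.07, beside 0.02 for all genes tested. By sign 7 were above 0 and 3 below, where 53.2% of all genes were above and 46.8% below. The 7 include Chaf1a at 0.0018 and Supt16 at 0.0035, and by mean FPKM 6 of the 10 were higher and 4 lower. In 4 of the 10 the groups did not overlap, Daxx and Asf1b with higher and Rbbp4 and Hira with lower values after Yy1 knockdown. Over all genes 40.7% did not overlap, so this count is that of the table at large.

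**Figure D1:**
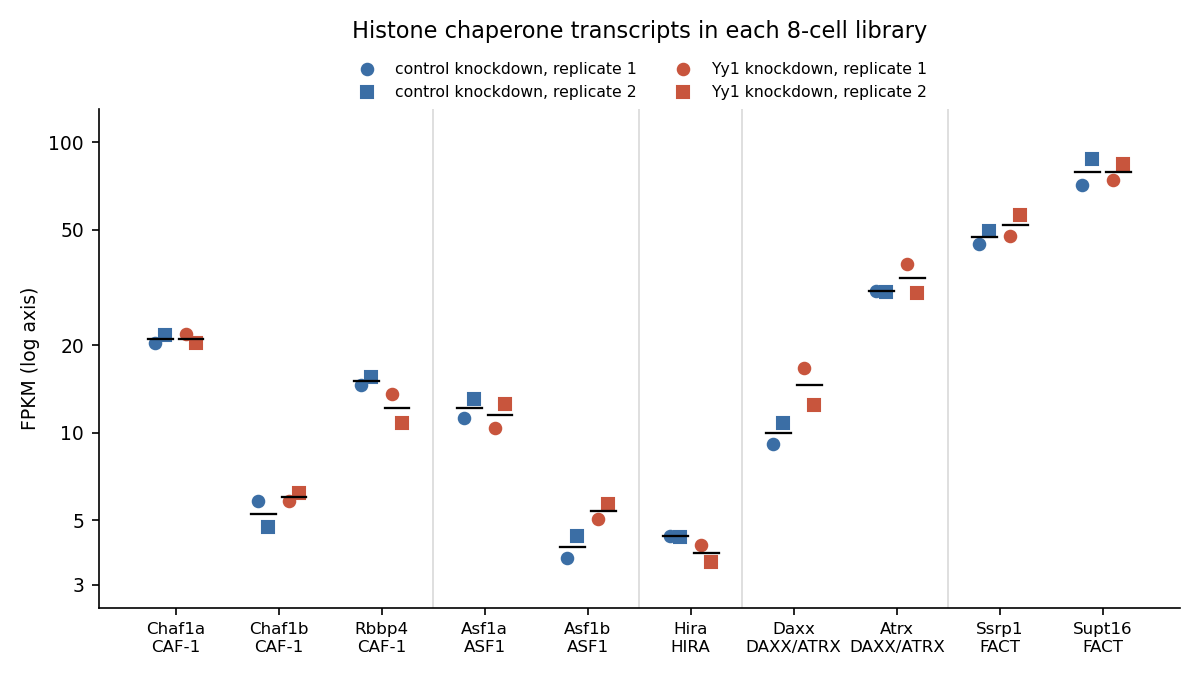
FPKM (log axis) of each chaperone gene in the 4 libraries, blue for control and red for Yy1 knockdown, circles for replicate 1, squares for replicate 2, black bars for the group means (n = 2). Supt16 lies highest at 71.2 to 87.2 FPKM, Hira and Asf1b lowest, and in 6 of the 10 genes the ranges of the groups overlap at least in part.

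CAF-1 is a trimer, and its transcripts did not stand at one level. Chaf1a encodes p150, the large subunit that binds PCNA and heterochromatin protein HP1. It lies on chromosome 17 from 56040416 to 56068026 of mm10. Chaf1a was measured at 20.4 and 21.7 FPKM in control and at 21.9 and 20.3 FPKM in Yy1 knockdown libraries. Both controls lay between the Yy1 knockdown values, and 1969 to 2466 fragments stood behind each value. Its mean was 21.1 ± 0.868 FPKM (SD, n = 2) in control and 21.1 ± 1.11 FPKM (SD, n = 2) after Yy1 knockdown. On the log2 scale the difference was 0.00, with a standard error of 0.15 (limma adjusted p = 0.999). Its 95% interval ran from 0.776-fold to 1.29-fold, the narrowest of the 10 on the log2 scale. Chaf1a also varied little between replicates: 8.47% of the genes tested had a smaller spread.

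Chaf1b encodes p60, the WD40 repeat subunit of CAF-1 through which ASF1 binds. Chaf1b stood at 5.81 and 4.74 FPKM in control and at 5.80 and 6.20 FPKM in Yy1 knockdown libraries, from 744 to 1001 fragments. The lowest value was control replicate 2, and the other 3 libraries lay close together. The mean was 5.28 ± 0.761 and 6.00 ± 0.277 FPKM (SD, n = 2 each). Limma gave a log2 fold change of FPKM + 1 of 0.16, with an adjusted p of 0.829. The interval, 0.799-fold to 1.57-fold, is wider on the upper side than that of Chaf1a. Chaf1b lies on chromosome 16 from 93883900 to 93906115.

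Rbbp4 encodes the third subunit, a histone H4 binding WD40 protein that is also part of the NuRD, SIN3 and PRC2 complexes. Its values were 14.6 and 15.5 FPKM in control and 13.6 and 10.8 FPKM in Yy1 knockdown libraries. Both Yy1 knockdown libraries lay below both controls, and replicate 2 of the knockdown was the lowest. The mean was 15.1 ± 0.681 FPKM in control and 12.2 ± 1.95 FPKM after Yy1 knockdown (SD, n = 2 each). The log2 fold change of FPKM + 1, -0.29 with a standard error of 0.18, had a limma adjusted p of 0.674. The interval ran from 0.599-fold to 1.11-fold. Leaving out Yy1 knockdown replicate 2 brought the log2 fold change to -0.14. Rbbp7, the near-identical paralog that can take the place of Rbbp4 in several complexes, stood far higher, at 151 and 232 FPKM in control and 165 and 193 FPKM in Yy1 knockdown libraries. How reads shared by such copies were counted by the authors was not stated in the labels. Rbbp4 lies on chromosome 4 from 129307100 to 129335370.

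ASF1 comes as a pair of paralogs that load H3 and H4 onto CAF-1 or HIRA. ASF1A is better known as a partner of HIRA, and ASF1B as the form of dividing cells. Asf1a, on chromosome 10 from 53596961 to 53609225, was measured at 11.3 and 13.1 FPKM in control and at 10.4 and 12.6 FPKM in Yy1 knockdown libraries. Replicate 2 was higher than replicate 1 in each group, and the groups overlapped. The log2 fold change was -0.08 (limma adjusted p = 0.924), with an interval from 0.691-fold to 1.30-fold.

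Asf1b, on chromosome 8 from 83955694 to 83970195, had the lowest depth of the 10 genes, with 298 to 401 fragments per library. Its values were 3.70 and 4.41 FPKM in control and 5.03 and 5.69 FPKM in Yy1 knockdown libraries. Both Yy1 knockdown libraries exceeded both controls. The mean was 4.06 ± 0.502 FPKM in control and 5.36 ± 0.466 FPKM after Yy1 knockdown (SD, n = 2 each), 1.32-fold higher. On the log2(FPKM + 1) scale the difference was 0.33, with a standard error of 0.20 (limma adjusted p = 0.672). At this low level the scale understates the fold: with limma-voom it was 0.41 on the log2 scale. The interval, 0.890-fold to 1.78-fold, includes no difference.

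Hira encodes the WD40 scaffold of the complex that deposits H3.3 outside replication. Hira had one of the lowest levels, at 4.41 and 4.38 FPKM in control and 4.12 and 3.59 FPKM in Yy1 knockdown libraries. The controls were nearly equal, and both Yy1 knockdown libraries lay below them. The mean was 4.40 ± 0.0225 FPKM in control and 3.85 ± 0.372 FPKM after Yy1 knockdown (SD, n = 2 each). The close controls come from 932 and 844 fragments, whose counting error alone is larger than their difference. The log2 fold change of -0.16 had a limma adjusted p of 0.839 and an interval from 0.638-fold to 1.26-fold. Hira lies on chromosome 16 from 18876750 to 18970309. Cabin1, Ubn1 and Ubn2, which encode the other subunits and partners of the HIRA complex, were tested among the other histone chaperones below.

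Daxx had the largest difference of the 10 genes. DAXX is a chaperone specific to H3.3, and it acts with ATRX in heterochromatin and is also found in PML nuclear bodies. Daxx stood at 9.18 and 10.8 FPKM in control and at 16.7 and 12.4 FPKM in Yy1 knockdown libraries. Both Yy1 knockdown libraries lay above both controls, and replicate 1 of the knockdown was the highest, with 1736 fragments against 967 to 1115 in the others. The mean was 9.99 ± 1.13 FPKM in control and 14.6 ± 2.98 FPKM after Yy1 knockdown (SD, n = 2 each), a 1.46-fold higher level. On the log2(FPKM + 1) scale Daxx differed by 0.49, with a standard error of 0.20, an unadjusted p of 0.0567 and an adjusted p of 0.571 by limma. In order of p it stood at place 1203 of the 12120 genes. Its interval, as a fold of FPKM + 1, ran from 0.986 to 2.01, and with limma-voom the adjusted p was 0.438. Leaving out Yy1 knockdown replicate 1 lowered the log2 fold change to 0.30. Daxx lies on chromosome 17 from 33909404 to 33915590, and Atrx on chromosome X from 105797615 to 105929372.

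Atrx encodes the SWI/SNF family helicase that recruits DAXX. Atrx was measured at 30.8 and 30.6 FPKM in control and at 38.1 and 30.3 FPKM in Yy1 knockdown libraries. Yy1 knockdown replicate 1 stood above the other 3, which lay within a narrow range, and the groups overlapped. Its log2 fold change was 0.14 (limma adjusted p = 0.828), with an interval from 0.827-fold to 1.47-fold. Without Yy1 knockdown replicate 1 it was -0.02. The values of Daxx and Atrx were thus both highest in that library, and they summed there to 54.7 FPKM, against 40.0 to 42.7 FPKM in the others.

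Daxx and Atrx were also the 2 members of the 10 whose promoter windows held the YY1 motif AANATGGC, searched on both strands. Windows of 250 bases before to 50 bases after annotated starts were taken from RefSeq (GRCm38.p6, the assembly behind mm10), and 13 windows matched the 10 genes. The motif was in 4 of these 13 windows, and the 3 windows of Daxx overlap. Among all genes with a window 6.96% held it in at least 1, and among all 32851 windows 6.05%. The windows of the 10 genes are richer in CG dinucleotides than most, with a median of 31 against 7 over all windows, and windows of like composition were not compared. The stretches around the matches are shown because they are the places where these genes carry the letters that YY1 is known to prefer. Each is written 5′ to 3′ on the strand of the gene, with the motif in capitals.
Daxx, first match, chr17:33909308-33909337, plus strand: tgccgtacggcAACATGGCgcgccccatct
Daxx, second match, chr17:33909436-33909465, plus strand: tcccgtacagcAATATGGCcgccctcaggt
Atrx, chrX:105929323-105929352, minus strand: gcctcggcccaacAAAATGGCgtcggcata
Daxx has 3 windows, and its second match covers bases 3 to 10 counted from the start used for the first of them. The gene start of Daxx given above, 33909404, lies before that start and had no window of its own. In Atrx the match covers bases 34 to 41, counted from the annotated start as base 1. The longer form, in which the motif is followed at once by GGC, was found in 0 of the 13 windows and in 0.986% of all windows. A match is a run of letters and shows no binding, and binding of YY1 was not analysed here.

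FACT had the highest transcript levels of the 10 genes. It is a dimer of SPT16, encoded by Supt16, and SSRP1, which binds nucleosomal DNA through its HMG domain. Supt16, on chromosome 14 from 52160419 to 52197239, was measured at 71.2 and 87.2 FPKM in control and at 74.0 and 84.4 FPKM in Yy1 knockdown libraries. The knockdown values lay between the control values. By limma the difference was 0.00 on the log2 scale (adjusted p = 0.996), with an interval from 0.758-fold to 1.33-fold. Ssrp1, on chromosome 2 from 85037120 to 85047114, stood at 44.6 and 49.7 FPKM in control and at 47.5 and 56.0 FPKM in Yy1 knockdown libraries. Its groups overlapped, with a log2 fold change of 0.13 (limma adjusted p = 0.829) and an interval from 0.838-fold to 1.43-fold. In each group both FACT genes were higher in replicate 2 than in replicate 1, as were Asf1a and Asf1b. For Hira and Atrx replicate 1 was higher in each group, and for the other 4 genes the order differed between the groups. Among all genes tested 55.5% had the same order in the groups.

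**Figure D2:**
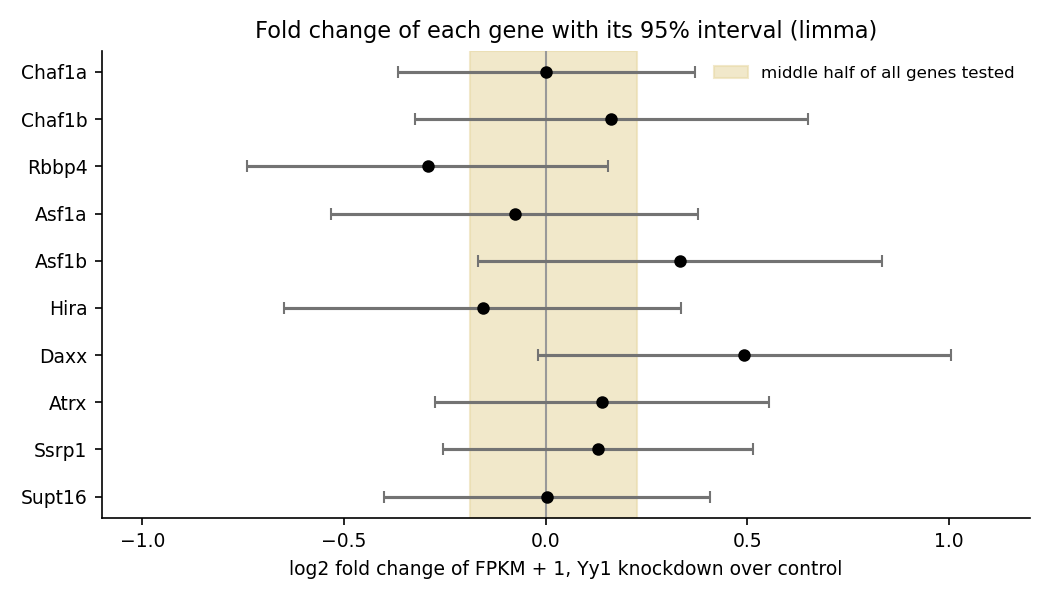
Log2 fold change of FPKM + 1 (Yy1 knockdown over control) for each chaperone gene, points with 95% intervals from limma (2 libraries a group). The shaded band holds the middle 50% of all genes tested, from -0.19 to 0.23. Each interval includes 0, and Daxx lies farthest to the right at 0.49.

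The order of the levels was nearly the same in the 4 libraries. Supt16, Ssrp1, Atrx and Chaf1a held places 1 to 4 in each library, and Chaf1b held place 8. In control libraries the order continued with Rbbp4, Asf1a, Daxx, Chaf1b, Hira and Asf1b by mean. Of these neighbours only Hira and Asf1b overlapped in range, at means of 4.40 and 4.06 FPKM. After Yy1 knockdown Daxx stood at place 5, and its range overlapped that of Rbbp4, which overlapped that of Asf1a. Ranges of 2 libraries are a rough measure of spread, so neighbours that do not overlap may still not differ. FPKM divides by gene length, and the lengths that fit the values ran from 2180 bases for Asf1a to 21757 bases for Atrx. A level of Atrx set against another gene therefore depends on how much of that length its transcripts use.

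In control libraries the level of Supt16 exceeded that of 91.9% of the 12120 genes tested and that of Asf1b exceeded 39.7%. All the members but Chaf1b, Hira and Asf1b stood above the median gene, which had 6.06 FPKM. The 10 genes summed to 216 and 242 FPKM in control and to 237 and 242 FPKM in Yy1 knockdown libraries. FACT made up 53.6% and 56.5% of that sum in control and 51.3% and 57.9% after Yy1 knockdown. The CAF-1 genes made up 18.9% and 17.3% in control and 17.4% and 15.4% after Yy1 knockdown. ASF1 made up 6.52% to 7.55% and Hira 1.48% to 2.04% over the 4 libraries.

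Ratios between partners remove what shifts both genes alike in a library. Of 7 pairs compared, with no test, 4 had ratios that did not overlap between the groups. Over all 70727671 pairs of genes tested and above 0 in each library 40.5% did not overlap. The exact permutation test of 2 libraries against 2 cannot go below a p of 0.333, so no p is given for a ratio. Asf1a to Asf1b had the closest replicates, at 3.05 and 2.96 in control and 2.07 and 2.21 after Yy1 knockdown. The difference was -0.49 on the log2 scale, beside an SD between replicates of 0.05. Asf1a was thus about 3.01 times Asf1b by mean in control and 2.14 times after Yy1 knockdown, with Asf1b carrying most of that difference. The counting error of Asf1b alone, up to 5.79% from 298 to 401 fragments, is larger than the SD between replicates of this ratio. That SD therefore understates the spread.

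Within CAF-1, Chaf1a stood at 1.40 times Rbbp4 in each control library and at 1.61 and 1.88 times after Yy1 knockdown. Chaf1a stood at 3.52 and 4.58 times Chaf1b in control and at 3.77 and 3.28 times after Yy1 knockdown, which overlap. Daxx stood at 0.298 and 0.352 of Atrx in control and at 0.438 and 0.411 after Yy1 knockdown. Although both genes were highest in Yy1 knockdown replicate 1, their ratio was higher than in the controls in replicate 2 as well. Ssrp1 stood at 0.626 and 0.570 of Supt16 in control and at 0.642 and 0.664 after Yy1 knockdown, the smallest shift of the 4 pairs without overlap. Rbbp7 was 10.4 and 14.9 times Rbbp4 in control and 12.1 and 17.9 times after Yy1 knockdown. H3f3b, one of the genes of H3.3, was 3.23 and 5.19 times its partner H3f3a in control and 3.48 and 5.86 times after Yy1 knockdown. In this pair the ratio followed the replicate number and not the group.

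**Figure D3:**
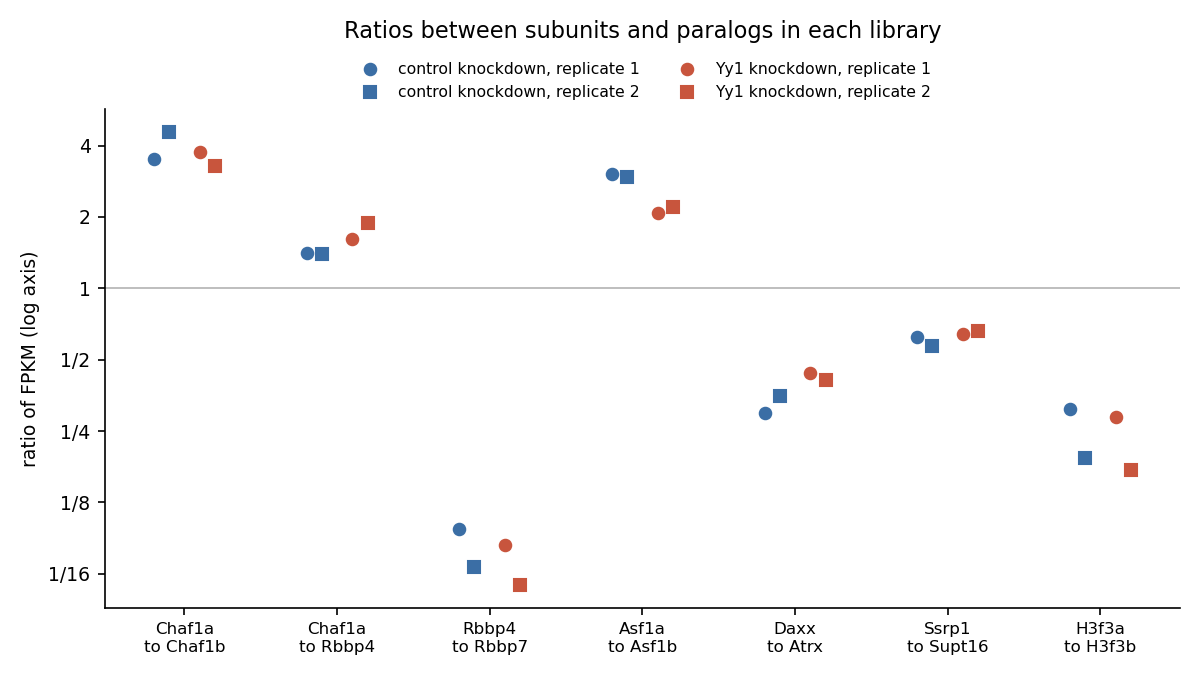
Ratio of FPKM (log axis) between subunits and paralogs in each library, blue for control and red for Yy1 knockdown, circles for replicate 1, squares for replicate 2. Asf1a to Asf1b lies near 3.01 in control and 2.14 after Yy1 knockdown, while Chaf1a to Chaf1b and H3f3a to H3f3b overlap between the groups.

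Other genes of histone supply and of the complexes that chaperones work with were described by 6 lists. Limma called 0 genes of each list, and so did limma-voom. Counts at an unadjusted p below 0.05 by limma are given here beside 4.22% higher and 4.69% lower among all genes tested. With limma-voom 10.4% of all genes tested had such a p. In the order below, 3 of 26, 5 of 22 and 0 of 27 genes had it. The lists after these had 0 of 15, 3 of 22 and 2 of 13. Hat1, Mcm2, Rbbp7 and Supt6 stand on 2 lists each.

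Of 26 other histone chaperones 26 were tested, 0 higher and 2 lower at an unadjusted p below 0.05. Their median log2 fold change was 0.07, and 13 of the 26 did not overlap between the groups, beside 40.7% of all genes tested. Npm3, a nucleoplasmin family member, stood at 34.9 and 33.1 FPKM in control and at 22.9 and 23.3 FPKM in Yy1 knockdown libraries (limma adjusted p = 0.500). Sart3, which binds histones and recycles the spliceosome, stood at 23.8 and 28.6 against 15.2 and 20.5 FPKM (0.548). Npm2, the oocyte nucleoplasmin that remodels sperm chromatin, lay on the other side, at 17.9 and 17.9 against 25.1 and 21.8 FPKM (0.571). Mcm2, the helicase subunit that carries parental H3 and H4 at the fork, stood at 21.5 and 19.2 against 16.1 and 15.9 FPKM (0.604).

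The 22 genes of replication fork proteins, among them the clamp PCNA and its loader, had 1 gene higher and 1 lower at an unadjusted p below 0.05, and a median of 0.04. Mcm5, another helicase subunit, had the lowest p, at 24.7 and 26.8 FPKM in control and 14.0 and 15.1 FPKM after Yy1 knockdown (limma adjusted p = 0.462). The clamp loader subunits Rfc3 and Rfc5 and the checkpoint adaptor Clspn lay on the other side. Rfc3 stood at 2.16 and 2.10 against 3.42 and 3.62 FPKM (0.560), and Rfc5 at 3.55 and 3.16 against 4.65 and 5.62 FPKM (0.572). Clspn stood at 15.5 and 15.7 against 22.1 and 19.3 FPKM (0.561).

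The cargo itself, histone H3 and H4 genes, had 27 of 29 members tested, with Hist2h3b and Hist2h3c1 listed at 0 in each library. None had an unadjusted p below 0.05 with limma or limma-voom, and the median was -0.01. In 1 of the 27 the groups did not overlap, against 40.7% of all genes. That gene, Hist1h4h, stood at 177 and 132 FPKM in control and at 129 and 117 FPKM in Yy1 knockdown libraries (limma adjusted p = 0.656). Hist1h3d, at 197 and 125 FPKM in control and 159 and 89.8 FPKM after Yy1 knockdown, shows the spread between replicates. Reads of such closely related copies may have been split between them, so values of single histone genes are uncertain.

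Among 15 heterochromatin partners of CAF-1, DAXX and ATRX, 0 had an unadjusted p below 0.05, and the median was 0.04. Sumo2, which encodes a modifier that DAXX binds, stood at 134 and 119 FPKM in control and at 171 and 134 FPKM in Yy1 knockdown libraries. Cbx1, which encodes HP1 beta, stood at 5.59 and 9.83 against 5.29 and 5.12 FPKM, with control replicate 2 apart from the rest. Dnmt1, the maintenance DNA methyltransferase, stood at 15.3 and 17.5 against 18.9 and 20.2 FPKM. The limma adjusted p of these 3 genes was 0.677, 0.674 and 0.678.

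Complexes that share RBBP4 had 22 of 23 genes tested, with Smarca1 below the filter, and 0 higher and 3 lower at an unadjusted p below 0.05. In 7 of the 22 the groups did not overlap, and in 7 of these 7 the Yy1 knockdown libraries were the lower. Over all genes 18.9% did not overlap with lower and 21.8% with higher values. The median was -0.03. Lin52, a subunit of the DREAM complex, stood at 7.15 and 5.70 FPKM in control and at 3.35 and 2.72 FPKM in Yy1 knockdown libraries (limma adjusted p = 0.499). Sap30 of the SIN3 complex stood at 49.7 and 42.5 against 23.1 and 31.8 FPKM (0.502). Suz12 of PRC2 stood at 116 and 107 against 88.3 and 80.4 FPKM (0.532). Chd4, the NuRD remodeler, stood at 60.8 and 77.2 against 50.7 and 61.0 FPKM (0.673). Rbbp4 was also lower in the Yy1 knockdown group. Like Lin52 and Suz12 it was lowest in replicate 2 of that group, whereas Sap30 and Chd4 were lowest in replicate 1. The groups of Chd4 overlapped. By log2 fold change 9 of the 22 genes lay above 0 and 13 below. No relation between these genes was tested.

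Partners of FACT in transcription elongation, 13 genes, had 1 higher and 0 lower at an unadjusted p below 0.05, and a median of -0.07. Supt4a, which encodes the SPT4 subunit of DSIF, stood at 45.4 and 41.6 FPKM in control and at 59.0 and 61.8 FPKM in Yy1 knockdown libraries (limma adjusted p = 0.518). Iws1 lay on the same side, at 13.6 and 15.8 against 16.8 and 18.4 FPKM (0.681). Cdc73 of the PAF1 complex and the remodeler Chd1 lay on the other, at 3.31 and 3.48 against 2.52 and 2.53 FPKM (0.679) and at 41.0 and 45.1 against 38.3 and 35.8 FPKM (0.686).

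**Figure D4:**
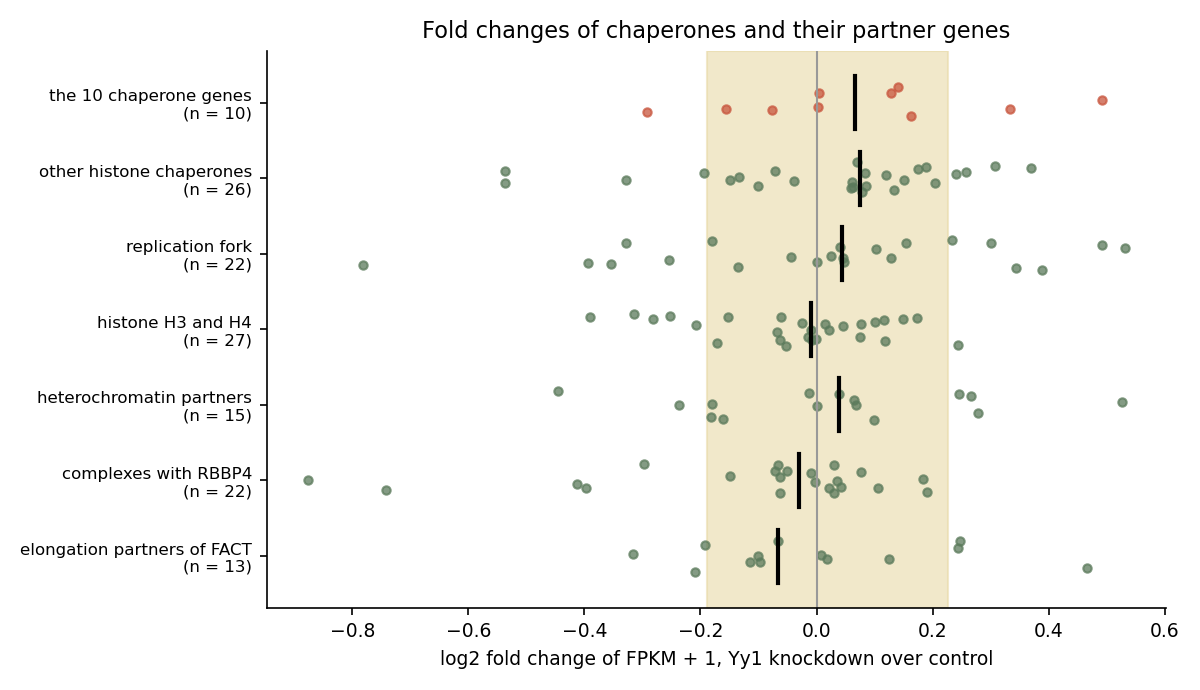
Log2 fold changes of FPKM + 1 (Yy1 knockdown over control) for the 10 chaperone genes (red) and the genes of 6 partner lists (green), 1 point a gene, black bars for the list medians. The shaded band holds the middle 50% of all genes tested, and the medians lie between -0.07 and 0.07.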

How the data were processed

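RNA-seq libraries of 8-cell embryos were made from total RNA with a SMART-Seq stranded kit, per the labels' protocols. The authors deposited FPKM, used here as deposited. For the mm10 build, the submitters' processing notes list HISAT2 2.2.1, Bowtie2 2.4.3, featureCounts, Trim Galore 0.6.7, bedtools, SAMtools 1.4.1 and R 4.0.3, with no role for each. Annotation, strand setting and multi-mapping reads: not given in the sources used here.

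The members, lists and tests were chosen with earlier results of these data known. Genes whose mean reached 1 FPKM were tested on log2(FPKM + 1) with limma 3.58.1 in R 4.3.3 (group term, mean-variance trend, two-sided), with Benjamini-Hochberg adjustment over all 12120 genes. A fold change on this scale is of FPKM + 1 and understates low genes, and 95% intervals are limma's on the same scale. Fold values of means are ratios of FPKM. Fragments were recovered from the steps between FPKM values, whole within 0.02 fragments for 12120 of 12120 genes. They can be understated by a common factor, as can the gene lengths found with them. PCR copies are not independent molecules. Both steps were tested on simulated data. The p-values rest on the spread between 2 libraries a group, which may be technical. In the main fit limma draws each gene's spread toward a trend over all genes tested. Its p-values and intervals therefore do not rest on a gene's own spread alone. Named genes are the 10 members, Yy1, the pairs and the 4 genes of smallest p per list, of which 1 is not reported here. Alternatives were pseudocounts of 0.1 and 5, quantile normalization, median-ratio scaling, no filter or one of 5 FPKM, protein-coding genes alone, the replicate number as a block, limma-voom, an adjusted p of 0.1 and leaving out each library.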

Additional observations from a re-analysis of the deposited data

How the results depend on the processing

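No chaperone gene was called under any alternative run, at adjusted p values from 0.358 for Daxx to 0.999. The count of all genes called, 0, became 1 with a pseudocount of 5, 4 with a filter of 5 FPKM, 14 among protein-coding genes alone, 12 with limma-voom on recovered fragments and 3 at an adjusted p of 0.1, and the cause was not tested. The filter of 5 FPKM left Hira and Asf1b untested. Daxx, Asf1b, Chaf1b and Ssrp1 stayed above 0 and Rbbp4 and Hira below 0 in each alternative. Near 0, Chaf1a (0.00) turned to -0.0176 with median-ratio scaling, and Supt16 (0.00) to -0.0165 with median-ratio scaling and -0.0519 with quantile normalization. With each library left out in turn, log2 fold changes ran from -0.0493 to 0.0529 for Chaf1a, -0.141 to 0.147 for Supt16, -0.203 to 0.0489 for Asf1a and -0.0206 to 0.300 for Atrx, which cross 0. They ran from 0.30 to 0.69 for Daxx, 0.23 to 0.43 for Asf1b, 0.04 to 0.29 for Chaf1b, 0.01 to 0.25 for Ssrp1, -0.44 to -0.14 for Rbbp4 and -0.23 to -0.08 for Hira. Such fits have 1 library in a group, which is assumed to vary like the other group. The median of the 10 genes stayed between 0.01 and 0.09. With the replicate block 0 genes were called. Deviations of same-numbered libraries had a correlation of 0.0994 over genes, and the labels tie the numbers to no shared source.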
